A study of Mus musculus with 12 samples.

Results

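The interferon response and the MHC class I pathway were followed here through 9 genes in mouse pancreatic islets. They are Isg15, Ifit1, Ifit3, Irf7, Ifi44, Usp18 and Oasl2, which interferons induce, and B2m and H2-K1, which encode the chains of a classical MHC class I molecule. Each was taken by its Ensembl identifier, and the 9 rows were found among the 37991 genes of the count table. All 9 were expressed above the filter on low counts, which 15961 genes passed.

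Interferons are secreted proteins that bind receptors on the cell surface, and the receptors signal through JAK kinases to transcription factors. These bind interferon-stimulated response elements (ISREs) in the promoters of antiviral genes. MHC class I molecules carry peptides from inside the cell to its surface, where CD8+ T cells read them. Interferons raise the expression of the heavy chains, of B2m and of the genes that supply and load the peptides. In islets this response is known from autoimmune diabetes, in which β-cells with high surface MHC class I are found.

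Islet RNA came from male C57BL/6 mice, either wild-type (Wt) or Tg7, a transgenic line in which β-cells overexpress the microRNA miR-7. Islets were isolated at 2 weeks (2w), when Tg7 mice are normoglycaemic, and at 12 weeks (12w), when they are hyperglycaemic. Each of the 4 groups held 3 libraries, every one from a pool of mice, and the Wt mice were littermates. P values therefore measure the spread between pools, not between single mice. Total counts were between 11610697 and 17515758 per library. The count of the Mir7-2 row was 0 to 13 and gives no check of the transgene, because a short precursor is not measured by this kind of library. The share of reads from the insulin genes Ins1 and Ins2, which mark β-cells, was 10.1% to 15.4% in 2w Wt, 1.84% to 4.09% in 2w Tg7, 14.8% to 30% in 12w Wt and 8.08% to 8.24% in 12w Tg7. Whole islets hold several cell types, so fewer cells of a type and less RNA per cell cannot be told apart. Levels are in CPM, the counts of a gene relative to the total of its library, scaled with TMM factors, which correct for a few genes that take up much of a library. With library size alone the median log2 fold change of all tested genes rose from 0.03 to 0.19 at 2w and from −0.01 to 0.43 at 12w. The share of called genes that were higher in Tg7 then went from 57.2% to 84.0% at 2w and from 52.7% to 93.5% at 12w, and with upper-quartile factors it was 65.9% and 64.7%. Changes below are relative to the TMM scale.

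The promoters of the 9 genes were compared first, for matches to the element through which interferons act. RefSeq promoter windows of assembly GRCm38.p6, from 250 bases before to 50 bases after the start of transcription, were found for 8 of the 9 genes. Usp18 is not among them. The ISRE core was searched on both strands as GAAA, any 2 bases and again GAAA. It was present in the windows of Isg15, Ifit1, Ifit3 and B2m and in none of those of Irf7, Ifi44, Oasl2 and H2-K1. Of all 32851 windows 3.44% held it. The matches are shown in capitals with the bases around them, read 5′ to 3′ along the strand of the gene, because they separate these promoters.
Isg15: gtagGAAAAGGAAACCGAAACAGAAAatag
Ifit1 distal: tcagTTTCACTTTCcagt
Ifit1 proximal: tcagTTTCAGTTTCtcac
Ifit3 distal: taagTTTCACTTTCctct
Ifit3 proximal: tctgTTTCAGTTTCtact
B2m: acatGAAACTGAAAatgg
H2-K1: ctggGGATTCCccat

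In Isg15 (chr4:156200871-156200900, minus strand) 3 overlapping matches ran from 78 to 57 bases before the start. In Ifit1 the distal match (chr19:34640781-34640798, plus strand) began 104 bases and the proximal match (chr19:34640800-34640817) 85 bases before the start, both on the opposite strand to the gene. Ifit3 had the same pair of 10-base cores, at 156 bases (chr19:34583369-34583386, plus strand) and at 122 bases (chr19:34583403-34583420) before its start. The single match of B2m (chr2:122147544-122147561, plus strand) began 139 bases before the start. H2-K1 is shown for another element, the core of the class I enhancer A, which NF-κB factors bind. This was searched as GGATTCC and lay 109 bases before the start of H2-K1 (chr17:34000446-34000460, minus strand), and 3.79% of all windows held it. The interferon-gamma element GAS, searched as TTCNNNGAA, was in none of the 8 promoters and in 8.3% of all windows. A match is a string of letters and was not tested for binding. A window without a match may still hold an element that differs from the searched letters, or the element may lie outside the window.

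Ifit3 was upregulated in Tg7 islets at both ages. It encodes a tetratricopeptide protein that works with Ifit1 in binding foreign RNA, and lies at chr19:34658021-34663221 of mm9, the build of the count table. In Wt it stood at 3.09, 2.43 and 1.28 CPM at 2w and at 7.94, 6.03 and 7.0 CPM at 12w. In Tg7 it stood at 7.68, 10.3 and 8.94 CPM at 2w and at 16.9, 13.9 and 18.2 CPM at 12w. Every Tg7 library was above every Wt library of its age. The difference was 3.97-fold at 2w (log2 1.99 ± 0.28 SE, adjusted p = 6.3e-04) and 2.34-fold at 12w (log2 1.23 ± 0.26 SE, adjusted p = 0.0041). Both calls held in all 21 alternatives of the processing, with log2 values from 1.69 to 2.29 at 2w and from 1.13 to 1.68 at 12w. The nearly identical paralogue Ifit3b shares reads with Ifit3, so that counts may be divided between them. It was looked at after its values were seen, and its counts of 16 to 209 gave a log2 difference of 2.14 ± 0.28 at 2w and 1.49 ± 0.27 at 12w.

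Ifit1, the family member that recognises RNA without the host's cap methylation, was called by edgeR between ages and not between genotypes. It lies beside Ifit3 at chr19:34715361-34724499. Its Wt libraries gave 6.82, 4.35 and 4.89 CPM at 2w and 47.1, 33.2 and 22.5 CPM at 12w. Its Tg7 libraries gave 6.94, 9.42 and 5.61 CPM at 2w and 18.7, 22.2 and 21.7 CPM at 12w. The genotypes overlapped at 2w, whereas at 12w all Tg7 libraries lay below all Wt libraries. Tg7 minus Wt was 0.44 ± 0.28 on the log2 scale at 2w (adjusted p = 0.331) and −0.71 ± 0.26 at 12w (adjusted p = 0.0598), and neither passed the threshold of 0.05. DESeq2 and the fit without a filter called the 12w difference (log2 −0.72 and −0.70), and it was also called without 12w Wt replicate 4 (log2 −0.94). The change with age passed in both genotypes, with a 6.34-fold increase in Wt (log2 2.66 ± 0.28, adjusted p = 3.7e-05) and a 2.86-fold increase in Tg7 (log2 1.51 ± 0.27, adjusted p = 0.0021).

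The ratio of Ifit3 to Ifit1 reads within a library does not depend on how libraries are scaled. It was 0.452, 0.559 and 0.261 in 2w Wt and 1.11, 1.09 and 1.59 in 2w Tg7. At 12w it was 0.168, 0.182 and 0.312 in Wt and 0.903, 0.628 and 0.839 in Tg7. The groups did not overlap at either age, and the geometric mean ratio was 3.08-fold and 3.68-fold higher in Tg7. An exact two-sided permutation test gave p = 0.1 at each age, which is the smallest value that 3 against 3 libraries allow. It belongs to a family of 6 such tests, on ratios chosen after the values were seen, and every adjusted p was 0.1.

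**Figure D1:**
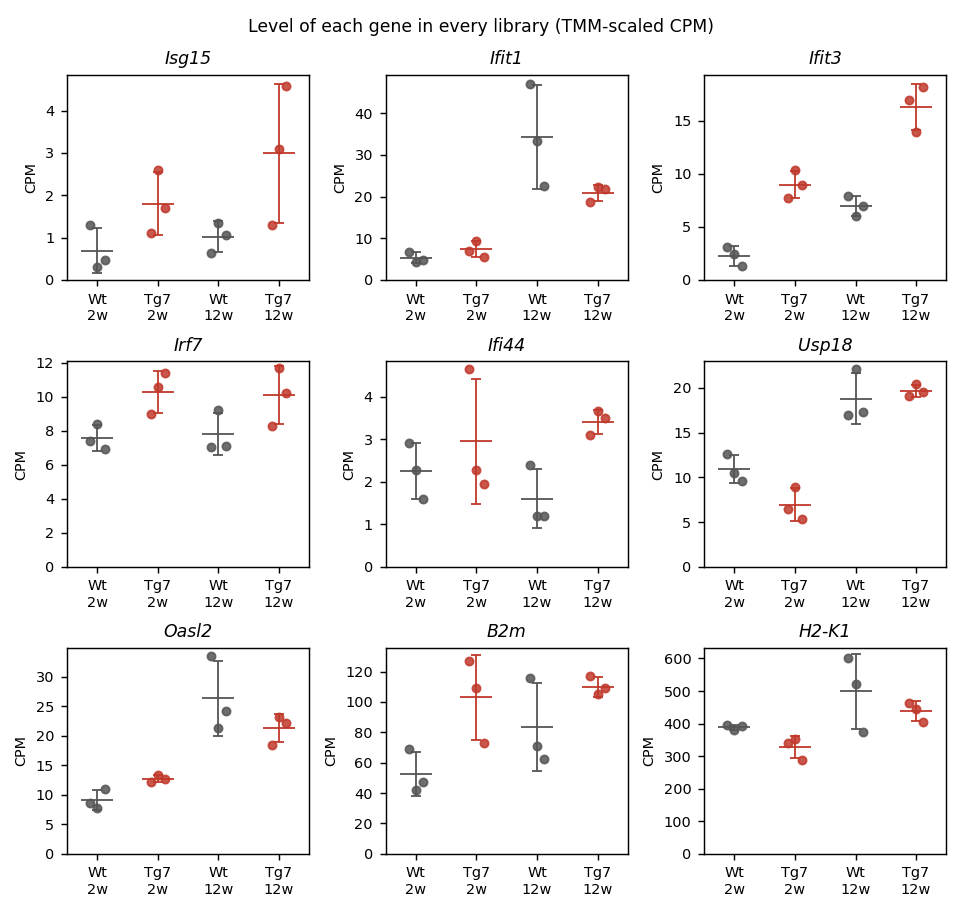
Level of the 9 genes in every library, in TMM-scaled CPM on linear axes that start at 0. Points are libraries, horizontal marks the mean and bars the SD (n = 3), grey for Wt and red for Tg7. The Tg7 points of Ifit3 lie above the Wt points at both ages, while Ifit1 is highest in 12w Wt at 34.3 ± 12.4 CPM.

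Isg15, a ubiquitin-like protein that is attached to other proteins, was low. It lies at chr4:155573533-155574927 and had 4 to 80 counts per library. In Wt it stood at 1.31, 0.295 and 0.479 CPM at 2w and at 0.63, 1.35 and 1.07 CPM at 12w. In Tg7 it stood at 1.12, 2.6 and 1.69 CPM at 2w and at 1.3, 3.1 and 4.58 CPM at 12w. The means were higher in Tg7 at both ages, but the libraries overlapped. The log2 difference was 1.35 ± 0.61 at 2w (adjusted p = 0.171) and 1.52 ± 0.60 at 12w (adjusted p = 0.0819). DESeq2 on all libraries called the 12w difference, and so did edgeR without 12w Tg7 replicate 1 (log2 1.90) and with library size alone (1.95).

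Usp18, the protease that takes Isg15 off its targets and restrains the type I receptor, lies at chr6:121195924-121220934. Its Wt libraries gave 12.6, 10.5 and 9.58 CPM at 2w and 17, 22.1 and 17.3 CPM at 12w. Its Tg7 libraries gave 6.51, 8.96 and 5.32 CPM at 2w and 19.1, 20.4 and 19.5 CPM at 12w. The 2w Tg7 libraries were all below the 2w Wt libraries, and the 12w groups overlapped. Tg7 minus Wt was −0.66 ± 0.20 at 2w (adjusted p = 0.0523), just outside the threshold, and 0.06 ± 0.20 at 12w (adjusted p = 0.869). DESeq2 on all libraries and the fit without a filter called the 2w value, as did edgeR without 2w Tg7 replicate 2 (log2 −0.89) or 12w Wt replicate 2 or 4 (−0.67 for each). With age Usp18 rose 2.84-fold in Tg7 (log2 1.51 ± 0.20, adjusted p = 3.4e-04) and 1.73-fold in Wt (log2 0.79 ± 0.20, adjusted p = 0.0161). The call in Wt was lost with library size alone (log2 0.40) and without 2w Wt replicate 2 or 3 or 12w Wt replicate 2 (0.76, 0.70 and 0.65).

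Oasl2, of the family of oligoadenylate synthetases that sense double-stranded RNA, lies at chr5:115346943-115362243. In Wt it stood at 8.6, 7.66 and 11 CPM at 2w and at 33.5, 21.3 and 24.1 CPM at 12w. In Tg7 it stood at 12.1, 13.3 and 12.7 CPM at 2w and at 18.5, 23.1 and 22.1 CPM at 12w. At 2w the Tg7 libraries were above the Wt libraries without passing the test (log2 0.48 ± 0.19, adjusted p = 0.13, and 0.64 and called with library size alone), and at 12w the groups overlapped (log2 −0.30 ± 0.19, adjusted p = 0.282, and 0.17 with library size alone). Its increase with age passed in Wt, 2.87-fold (log2 1.52 ± 0.20, adjusted p = 1.9e-04), and in Tg7, 1.67-fold (log2 0.74 ± 0.19, adjusted p = 0.0194). The call in Tg7 was lost without 2w Tg7 replicate 1 or 3 and without 12w Tg7 replicate 2 or 3, at log2 values from 0.68 to 0.75.

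Irf7, the transcription factor that amplifies interferon production, did not pass the edgeR test on the TMM scale in any comparison. It lies at chr7:148448605-148452380 and its end overlaps the opposite-strand gene Phrf1 by 45 bases, whose reads could not be told apart if strand was not used. Its Wt libraries gave 7.42, 8.4 and 6.92 CPM at 2w and 7.06, 9.21 and 7.13 CPM at 12w. Its Tg7 libraries gave 8.96, 10.6 and 11.4 CPM at 2w and 8.29, 11.7 and 10.2 CPM at 12w. The Tg7 libraries were above the Wt libraries at 2w (log2 0.45 ± 0.20, adjusted p = 0.172) and overlapped them at 12w (log2 0.37 ± 0.20, adjusted p = 0.221). With library size alone the 12w value was 0.81 and was called. The change with age was 0.05 ± 0.21 in Wt and −0.03 ± 0.20 in Tg7.

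Ifi44, an interferon-induced protein at chr3:151393886-151412911, had 15 to 87 counts per library. In Wt it stood at 2.91, 2.28 and 1.6 CPM at 2w and at 2.39, 1.19 and 1.2 CPM at 12w. In Tg7 it stood at 4.64, 2.27 and 1.94 CPM at 2w and at 3.1, 3.65 and 3.49 CPM at 12w. At 12w the Tg7 libraries lay above the Wt libraries (log2 1.14 ± 0.43, adjusted p = 0.0695), a difference that DESeq2 called, as did edgeR without 12w Wt replicate 1 (log2 1.48) or 2w Tg7 replicate 1 (1.16) and with library size alone (1.60). At 2w the groups overlapped (log2 0.39 ± 0.41, adjusted p = 0.589), and without Tg7 replicate 1 the value was −0.10.

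B2m, the light chain of every MHC class I molecule, was upregulated in 2w Tg7 islets. It lies at chr2:121973422-121978819, inside the opposite-strand gene Patl2, which had at most 3 counts in a library. Its Wt libraries gave 68.8, 41.8 and 47.1 CPM at 2w and 116, 71.3 and 62.4 CPM at 12w. Its Tg7 libraries gave 127, 109 and 72.7 CPM at 2w and 117, 105 and 109 CPM at 12w. The 2w groups did not overlap, and the difference was 1.95-fold (log2 0.97 ± 0.25, adjusted p = 0.0256). At 12w they overlapped (log2 0.41 ± 0.25, adjusted p = 0.266), and with library size alone the 12w value was 0.89 and was called. The 2w call was lost without Wt replicate 2 or 3 and without Tg7 replicate 1 or 2, with log2 values of 0.82, 0.89, 0.78 and 0.92. The increase of B2m with age in Wt (log2 0.66) did not pass, but DESeq2 on all libraries and the fit without a filter called it, as did edgeR without 2w Wt replicate 1 (0.90) or 12w Wt replicate 4 (0.82).

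H2-K1, the heavy chain of the classical molecule H-2K, did not pass the edgeR test on all 12 libraries in any comparison. It lies at chr17:34132962-34137278 and, as part of a multigene family, may share reads with other H2 genes. In Wt it stood at 394, 380 and 393 CPM at 2w and at 601, 523 and 373 CPM at 12w. In Tg7 it stood at 341, 353 and 288 CPM at 2w and at 464, 446 and 404 CPM at 12w. At 2w all Tg7 libraries were below all Wt libraries by a small amount (log2 −0.25 ± 0.16, adjusted p = 0.333), and at 12w the groups overlapped (log2 −0.19 ± 0.16, adjusted p = 0.433, and 0.28 with library size alone). It was called lower at 12w without 12w Wt replicate 4 (log2 −0.36). The increase with age, 0.36 ± 0.16 in Wt and 0.42 ± 0.16 in Tg7, did not pass the threshold (adjusted p = 0.137 and 0.0962). Without 12w Wt replicate 4 it passed in both genotypes (log2 0.52, adjusted p = 0.0057, and 0.42, adjusted p = 0.0122).

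Of the 9 genes, 2 were called higher in Tg7 at 2w, against 6.07% of all tested genes (10.6% in either direction), and 1 at 12w, against 12.5% (23.6% in either direction). EdgeR called 0 lower, against 4.55% and 11.2% of all genes. At an unadjusted p under 0.05 there was 1 lower at each age, Usp18 at 2w and Ifit1 at 12w, and DESeq2 on all libraries called the same genes lower. Libraries of the genotypes did not overlap for 6 of the 9 at 2w, 4 higher in Tg7 and 2 lower, and for 3 of the 9 at 12w, 2 higher and 1 lower. The shares over all genes were 35.9% at 2w and 37.1% at 12w. The median log2 difference of the 9 genes was 0.45 at 2w and 0.37 at 12w, beside 0.03 and −0.01 over all genes. Whether the Tg7 effect differed between ages was tested directly, and edgeR called 0 of the 9 genes, against 1.18% of all genes (0.307% with a smaller effect at 12w). At an unadjusted p under 0.05 there were 3 (Ifit1, Oasl2 and Usp18), and DESeq2 called 0. The nearest to the threshold was Ifit1, whose effect was 1.15 ± 0.38 lower at 12w on the log2 scale (log2 −1.15, adjusted p = 0.176), and without 12w Wt replicate 4 it was called (log2 −1.37, adjusted p = 0.0338).

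**Figure D2:**
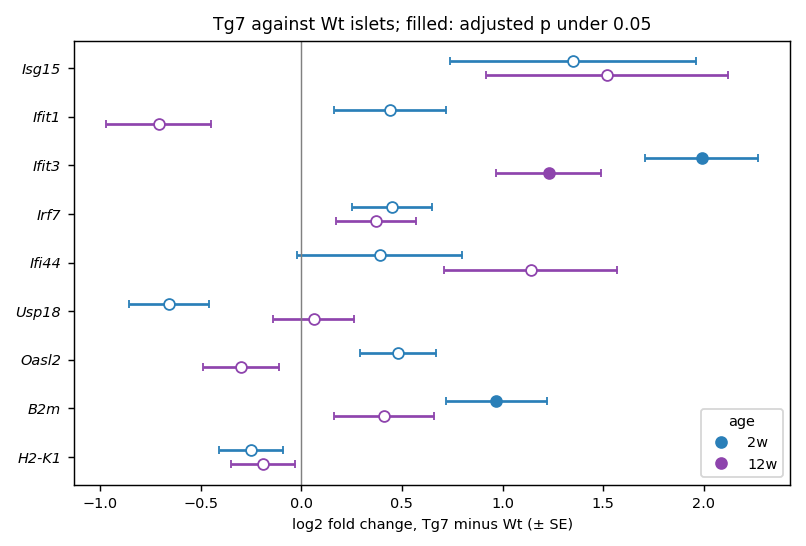
Log2 fold change of the 9 genes between Tg7 and Wt islets at 2w (blue) and 12w (purple), with the SE of the edgeR fit. Filled points passed an adjusted p of 0.05, namely Ifit3 at both ages and B2m at 2w, at 0.97 ± 0.25.

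From 2w to 12w, 4 of the 9 rose in Wt and 4 in Tg7, against 7.9% and 7.02% of all genes, and edgeR called 0 lower (7.91% and 6.01% of all genes), with 0 at an unadjusted p under 0.05 and 0 by DESeq2. The 4 were Ifit1, Ifit3, Oasl2 and Usp18 in both genotypes. With library size alone 3 were called with age in each genotype, and 3 at 2w and 5 at 12w between genotypes. Over all 15961 genes that scaling called 325 higher with age in Wt and 645 in Tg7. Between genotypes it called 1670 higher in Tg7 at 2w and 5198 at 12w. Ifit3 rose 3.09-fold in Wt (log2 1.63 ± 0.28, adjusted p = 0.0018) and 1.82-fold in Tg7 (log2 0.87 ± 0.25, adjusted p = 0.0384). The Tg7 call was lost with library size alone, without any of the 6 Tg7 libraries and without 2w Wt replicate 2, at log2 values from 0.75 to 0.98. These comparisons share the Wt or the Tg7 libraries with those between genotypes. Libraries of the 2 ages did not overlap for 4 of the 9 genes in Wt and for 5 in Tg7, where H2-K1 was the fifth. All of these were higher at 12w, as were 15.7% of all genes in Wt and 21.5% in Tg7. In either direction the ages did not overlap for 31.4% of all genes in Wt and 40.7% in Tg7, and 15.6% and 19.2% of all genes were lower at 12w.

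**Figure D3:**
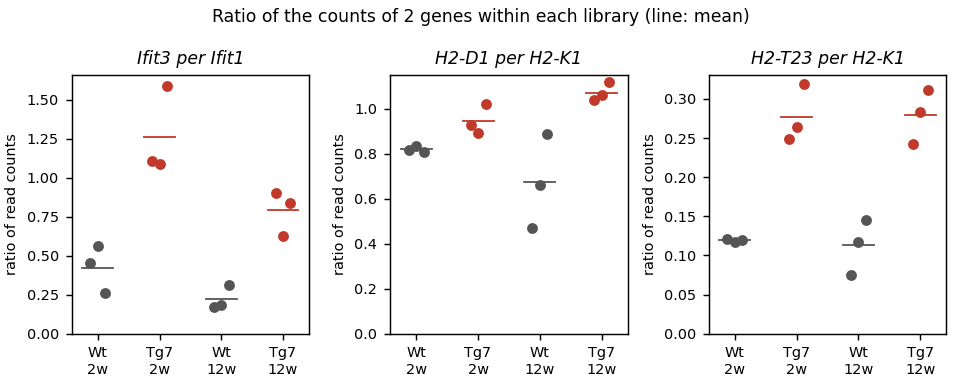
Ratio of the read counts of 2 genes within each library, Ifit3 per Ifit1, H2-D1 per H2-K1 and H2-T23 per H2-K1, on linear axes that start at 0. Points are libraries and lines the mean of 3. Tg7 libraries (red) lie above Wt libraries (grey) of the same age in each panel, for example at 0.277 ± 0.0367 against 0.12 ± 0.00226 for H2-T23 per H2-K1 at 2w.

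Levels of the 9 genes were compared with each other per kilobase of exon. In every group H2-K1 was first and B2m second, at means of 149 and 61.2 CPM per kb in 2w Wt, 126 and 120 in 2w Tg7, 191 and 97.0 in 12w Wt and 168 and 128 in 12w Tg7. Their libraries overlapped in 2w Tg7 alone. The 7 interferon genes had means of at most 12.9 CPM per kb, and Ifi44 was last in every group, between 0.261 and 0.558 CPM per kb. Usp18 led them in 2w Wt at 6.17 CPM per kb, apart from Irf7 at 2.51, and from Irf7 down to Isg15 each gene overlapped the next. In 2w Tg7 Ifit3 stood first of the 7 at 5.14 CPM per kb, overlapping Usp18 at 3.91. In 12w Wt Ifit1 led at 12.9 CPM per kb, overlapping Usp18 at 10.6. In 12w Tg7 Usp18 was first again at 11.1 CPM per kb, followed by Ifit3 at 9.36, which overlapped Ifit1 at 7.85.

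Over the 12 libraries, which share group and depth, the 9 genes did not all move together. On log2 CPM, Ifit1 and Oasl2 had the highest Pearson r of all 36 pairs at 0.945, and Ifit1 also went with Usp18 (0.806) and H2-K1 (0.773). Ifit3 was closest to B2m at 0.822 and to Isg15 at 0.765. B2m and H2-K1, whose products form 1 molecule, had r = 0.229. Each of the 7 interferon genes was also set against the mean of the others, and r ran from 0.172 for Ifi44 to 0.862 for Ifit3. The 6 genes most like the mean profile of the 7 interferon genes were Tmem59l (r = 0.955), Cetn4 (0.952), Gm16972 (0.948), Lhfpl5 (0.947), Tmem106c (0.946) and Fam69b (0.942), none of which is in the lists of interferon-stimulated genes used here. For the mean of B2m and H2-K1 they were Rps29 (0.963), 2210013O21Rik (0.959), Tapbp (0.946), AB041803 (0.937), Rps21 (0.937) and Rpl38 (0.936). Tapbp is tapasin, which holds class I molecules to the peptide transporter.

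Upstream of the 9 genes, interferon transcripts were hardly measured. Of 21 interferon genes, 15 had no count, among them Ifnb1 and Ifng, and a count of 0 allows up to 0.171 to 0.258 CPM per library (3 counts). The other 6 had 31 counts in all 12 libraries together, with at most 4 in a library, and none passed the filter on low counts. In the fit without a filter the 6 were tested and edgeR called 0 at either age, with 0 at an unadjusted p under 0.05. This limit covers counting error only.

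Receptors and signalling genes were expressed throughout. Of 21 tested, edgeR called 0 at 2w, beside 10.6% of all genes in either direction. There were 2 at an unadjusted p under 0.05, and DESeq2 on all libraries called 1. At 12w edgeR called 3, all higher in Tg7, near the 12.5% of all genes called higher. With library size alone 10 were called higher at 12w, beside 5198 of all 15961 genes. Without 12w Wt replicate 2 there were 5 higher and 2 lower, beside 4036 of 16487 genes called in either direction. The 3 were Ifnar2, a chain of the type I receptor (log2 0.79 ± 0.13, adjusted p = 8.3e-04), Irf1, a factor induced by interferon-gamma (0.75 ± 0.13, adjusted p = 0.0012), and Socs3, a feedback inhibitor of cytokine receptors (1.24 ± 0.34, adjusted p = 0.017). Their levels in Tg7 against Wt at 12w were 32.6 ± 2.04 against 18.9 ± 2.07 CPM, 98.0 ± 3.55 against 58.0 ± 11.5 CPM and 75.0 ± 16.8 against 31.5 ± 21.8 CPM. The transcription factor genes Stat2 and Irf9 stayed outside the threshold, with log2 values of −0.14 and 0.28 for Stat2 and 0.02 and 0.41 for Irf9 at 2w and 12w. The list of nucleic acid sensors and their adaptors also held nuclease genes. Of its 15 tested genes, 0 were called at 2w, beside 10.6% of all genes in either direction. There were 7 at an unadjusted p under 0.05 and 0 by DESeq2 on all libraries. At 12w 2 were called, both higher, near the 12.5% of all genes called higher. The 12w count was 0 without 12w Wt replicate 1 or 12w Tg7 replicate 2 or 3 and in edgeR on each age. It was 4 without 2w Tg7 replicate 3 and 7 with library size alone, which called 5198 of all 15961 genes higher. The 2 were the adaptor Myd88 (log2 0.42 ± 0.15, adjusted p = 0.0485) and Rnaseh2a, a nuclease subunit and not a sensor (0.71 ± 0.19, adjusted p = 0.0167). Ifih1, the sensor of long double-stranded RNA, was 0.42 and 0.41 higher in Tg7 without passing (adjusted p = 0.085 and 0.060).

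Further interferon-stimulated genes were more often higher than lower in Tg7. Of 60 tested, 9 were called higher and 2 lower at 2w, and 18 higher and 3 lower at 12w, beside the 6.07%, 4.55%, 12.5% and 11.2% of all genes. Their median log2 difference was 0.37 at 2w and 0.35 at 12w. The 9 at 2w became 3, 4 and 3 without Wt replicate 1, 2 or 3, 5 and 5 without Tg7 replicate 1 or 2, 15 without 12w Wt replicate 4, and 5 without 12w Tg7 replicate 2 or 3. Those at 12w stayed between 14 and 21. At 2w the largest were Slfn8 (2.31 ± 0.59), Iigp1 (1.45 ± 0.30) and Ifi47 (1.45 ± 0.35), and the smallest Uba7 (0.68 ± 0.18), Samd9l (0.52 ± 0.15) and Lgals3bp (0.46 ± 0.13). Iigp1 and Ifi47 encode GTPases that interferon-gamma induces against intracellular microbes, and Uba7 activates Isg15 for its attachment. At 12w the largest were Slfn8 (2.87 ± 0.63), Gbp2 (2.06 ± 0.20) and Ifitm1 (2.0 ± 0.49), and the smallest Nmi (0.55 ± 0.15), Samd9l (0.51 ± 0.15) and Ifi35 (0.38 ± 0.13). Gbp2, a guanylate-binding protein, went from 9.36 ± 1.0 CPM in 12w Wt to 39.0 ± 1.02 CPM in 12w Tg7. Slfn8 belongs to a family of close paralogues and had a mean below 5 CPM in each group.

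The genes called lower included an RNA sensor and an antiviral enzyme. Ddx60, a helicase linked to RNA sensing, was lower by 1.07 ± 0.25 at 2w (log2 −1.07) and by 1.23 ± 0.24 at 12w (log2 −1.23). Tor3a was also lower at both ages (log2 −0.68 ± 0.16 and −0.98 ± 0.16). Rsad2, the antiviral enzyme viperin, was lower at 12w (log2 −0.88 ± 0.28, adjusted p = 0.0332) and stood at 36.0 ± 9.30 CPM in Wt against 19.5 ± 2.95 CPM in Tg7. Its 12w Tg7 libraries lay below its 12w Wt libraries, as those of Ifit1 did. Of the 9 genes called higher at 2w, 8 (88.9%) were also called higher at 12w, where they were 44.4% of the 18. The same shares over all genes were not taken, so these values do not set this list apart. The 2 comparisons use different libraries but come from a single model with a shared estimate of the spread, so their calls are not independent. No further interferon-stimulated gene had an effect that edgeR called different between ages (0 of 60, beside 1.18% of all genes). At an unadjusted p under 0.05 there were 5, and DESeq2 called 1. The ISRE core was in the promoter windows of 27 of the 55 genes of this list that have one.

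**Figure D4:**
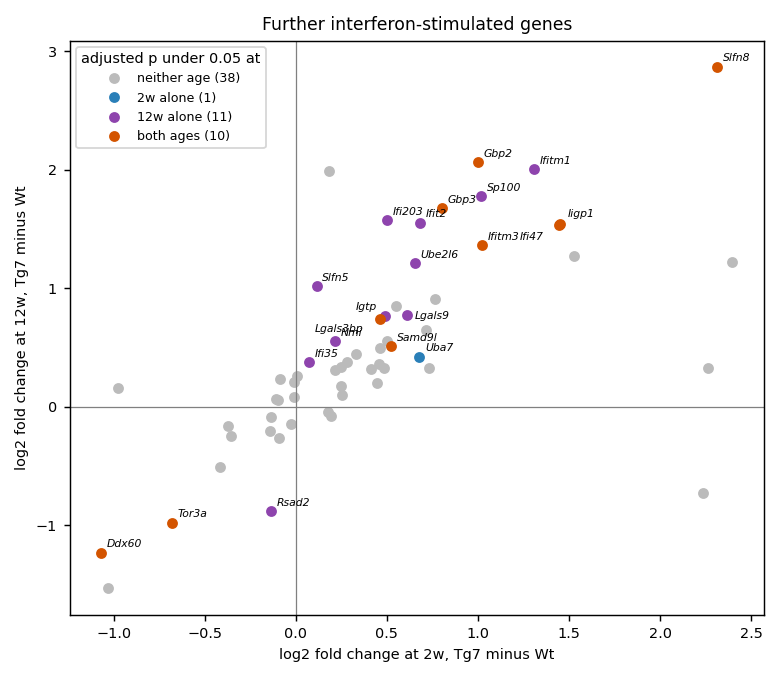
Log2 fold change between Tg7 and Wt islets at 2w (x axis) and 12w (y axis) of the 60 further interferon-stimulated genes, coloured by the age at which they passed an adjusted p of 0.05. The 10 genes called at both ages are 8 higher and 2 lower, with Slfn8 at the top right and Ddx60 at the bottom left.

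Other class I heavy chains were upregulated in part, while H2-K1 was not called on all libraries. Genes of peptide supply and loading were called in both directions. Of 15 other heavy chains tested, 5 were called higher and 0 lower at 2w, and 8 higher and 0 lower at 12w, beside 6.07% and 12.5% of all genes called higher, with a median log2 difference of 0.81 and 0.49. The 8 at 12w became 5 without 12w Tg7 replicate 2 or 3. DESeq2 called 0 lower at either age, and none was lower at an unadjusted p under 0.05. H2-T23, which encodes Qa-1, a ligand of inhibitory receptors on NK cells, went from 46.5 ± 1.8 to 90.1 ± 4.51 CPM at 2w (log2 0.95 ± 0.12, adjusted p = 2.9e-04). Also called at 2w were H2-Q7 (1.87 ± 0.52), H2-Q6 (1.5 ± 0.41), Fcgrt (1.01 ± 0.29), which is the neonatal Fc receptor and uses B2m, and H2-T22 (0.52 ± 0.13). At 12w the largest were H2-Q7 (2.29 ± 0.54), H2-Q8 (1.79 ± 0.58) and H2-Q6 (1.77 ± 0.41), and the smallest H2-M3 (0.68 ± 0.18), H2-D1 (0.55 ± 0.11) and H2-T22 (0.49 ± 0.13). The H2-Q and H2-T genes are close paralogues, among which reads may be divided.

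H2-D1, the other classical heavy chain of this strain, was called higher in Tg7 at 12w. It stood at 283, 345 and 331 CPM in 12w Wt and at 482, 473 and 452 CPM in 12w Tg7, and the groups did not overlap. The ratio of H2-D1 to H2-K1 reads was 0.673 ± 0.208 in 12w Wt and 1.07 ± 0.0418 in 12w Tg7, 1.64-fold apart, and 0.821 ± 0.0125 and 0.947 ± 0.0673 at 2w. The ratio of H2-T23 to H2-K1 reads was 2.31-fold higher in Tg7 at 2w and 2.55-fold at 12w. In each case the groups did not overlap and the exact two-sided permutation p was 0.1, the smallest possible.

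Among 13 tested genes of peptide supply and loading, 2 were called higher and 3 lower at 2w, beside 6.07% and 4.55% of all genes. At 12w 4 were called higher and 1 lower, beside 12.5% and 11.2% of all genes. Nlrc5, the transactivator of class I genes, was higher at both ages (1.84 ± 0.53 and 1.91 ± 0.53), from 1.06 ± 0.42 to 3.98 ± 0.47 CPM at 12w. Tap1, a subunit of the peptide transporter, was higher at both ages (0.60 ± 0.17 and 0.87 ± 0.17), and its partner Tap2 (1.17 ± 0.30) and the immunoproteasome subunit Psmb8 (0.89 ± 0.19) at 12w. The chaperone Calr was lower at both ages (log2 −1.07 ± 0.16 and −0.57 ± 0.16), and Canx (log2 −0.57 ± 0.14) and Pdia3 (log2 −0.55 ± 0.13) at 2w. Heavy chains and loading genes together had 7 calls higher at 2w, which became 2 without any of the 2w Wt libraries, 3 without 2w Tg7 replicate 1, and 2, 2 and 4 without 12w Tg7 replicate 1, 2 or 3. Calr, Canx and Pdia3 serve many glycoproteins of the endoplasmic reticulum. With library size alone Canx and Pdia3 were 0.16 and 0.65 higher in Tg7 at 12w. Psmb9 was listed at 0 in all libraries in 2 overlapping rows.

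**Figure D5:**
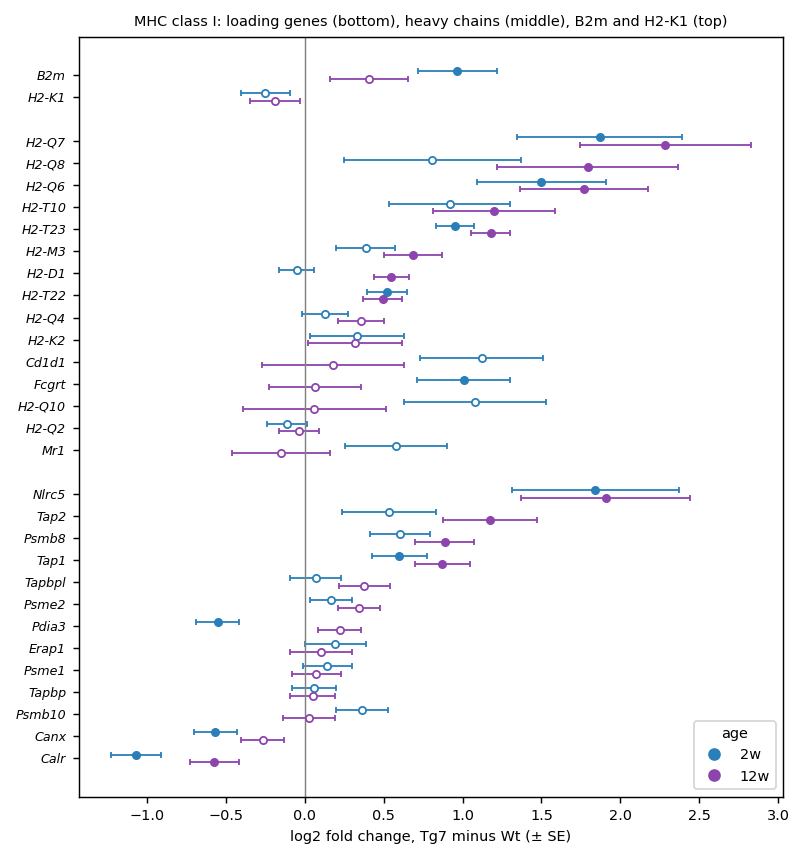
Log2 fold change between Tg7 and Wt islets at 2w (blue) and 12w (purple), with SE, of the MHC class I heavy chains, of the genes of peptide supply and loading, and of B2m and H2-K1. Filled points passed an adjusted p of 0.05, and H2-T23, at 0.95 and 1.18, has among the smallest errors while H2-K1 lies left of 0.

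Markers of other cells moved with parts of these results. The replicate 1 library of 2w Tg7 stood apart, with summed B lymphocyte markers of 25.7 CPM against 2.03 to 10.8 CPM in the other libraries, summed T and NK lymphocyte markers of 29.5 CPM against 2.13 to 7.08 CPM and the class II transactivator Ciita at 5.71 CPM against at most 1.09 CPM. It also had the highest 2w level of B2m and of Ifi44. Without it 1 of the 9 genes was called at 2w (Ifit3, log2 2.09), further interferon-stimulated genes called higher at 2w went from 9 to 5, and heavy chains and loading genes from 7 to 3. H2-T23 kept its value without it (log2 1.0), whereas H2-Q7 went from 1.87 to 0.94 and Nlrc5 from 1.84 to 0.98 and neither was then called. MHC class II genes, which mark antigen-presenting cells, were called higher for 5 of 8 tested at 2w (Ciita, H2-DMb1, H2-Eb1, H2-Ab1 and H2-DMa), beside 6.07% of all genes. The 5 became 2 without that library, 7 and 1 without 2w Tg7 replicate 2 or 3, and 0, 1 and 0 without 2w Wt replicate 1, 2 or 3. At 12w 1 of the 8 was called, H2-DMa (1.41 ± 0.24), beside 12.5% of all genes called higher. With library size alone 4 were called higher, beside 5198 of all 15961 genes.

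The marker counts that follow stand beside 6.07% of all genes called higher and 4.55% lower at 2w, and 12.5% and 11.2% at 12w. Among macrophage markers 1 of 12 tested was called higher at 2w and 1 lower at 12w, near those shares. Their summed level was 50.4 to 70.4 CPM in 2w Wt, 61.4 to 110 CPM in 2w Tg7, 99.8 to 113 CPM in 12w Wt and 87.1 to 91.9 CPM in 12w Tg7. Dendritic cell markers, 3 of 7 tested, gave 0 calls at either age, with 0 at an unadjusted p under 0.05. Neutrophil markers summed to at most 1.1 CPM in a library, and the defining markers Ly6g and Retnlg were at 0 in all. Endothelial markers, in contrast, were called higher in Tg7 for 0 of 10 at 2w, with 2 at an unadjusted p under 0.05, and for 9 of 10 at 12w. They summed to 406 to 534 CPM in 12w Wt and 830 to 888 CPM in 12w Tg7, and to 922 to 1190 CPM at 2w in Wt and 1030 to 1140 CPM in Tg7. Stellate and fibroblast markers were called higher for 6 of 9 at 2w and 8 of 9 at 12w, with sums of 89.4 to 150 CPM in 12w Wt and 389 to 413 CPM in 12w Tg7. β-cell markers were called lower for 7 of 8 at 2w and 6 of 8 at 12w. The part of these cells in the levels of the 9 genes was not tested.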

How the data were processed

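RNA of Wt and Tg7 islets at 2w and 12w was sequenced in 12 libraries. The deposited values are raw counts per Ensembl gene, which the authors made by trimming paired-end reads with Trimmomatic, aligning them to mm9 with TopHat2 2.0.11 and counting with featureCounts. Neither the paper nor the sample records state a strand setting. The depth of 11610697 to 17515758 counts limits the precision of genes such as Isg15, with 4 to 80 counts. Names, positions and exon lengths came from GENCODE vM1, which names 37205 of the 37991 identifiers, and promoters from RefSeq.

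Low genes were removed with filterByExpr, at a minimum count of 10 and a minimum total of 15. Counts were scaled with TMM factors and tested in edgeR 4.0.16 (glmQLFit, glmQLFTest) on the means of the 4 groups in a single model, with Benjamini-Hochberg adjustment over 15961 genes and a threshold of 0.05. DESeq2 1.42.0, the tool of the authors, was an alternative, besides those named in the closing section. The fit was tested on simulated counts. Log2 CPM used a prior count of 2. Ratios were tested with exact permutation tests in scipy 1.17.1.

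The 9 genes and the gene lists were chosen with earlier results of these data known. Of each further list, all called genes were named where there were at most 6 at an age, otherwise the 3 highest and 3 lowest in each direction. The 6 genes most like each mean profile were named by Pearson r over all libraries. Genes of signalling and sensing were also named for their role. Helz2, Phf11d, H2-L, H2-Q1 and H2-Q9 were not matched to a row.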

Additional observations from a re-analysis of the deposited data

How the results depend on the processing

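The calls of Ifit3 between genotypes and of Ifit1 with age held in every alternative tried. So did those of Ifit3 and Oasl2 with age in Wt and of Usp18 with age in Tg7. Of 886 repeats of the results of the 9 genes, 809 kept direction and side of the threshold, 20 lost the call, 34 gained it and 23 changed sign. The alternatives were DESeq2 on all libraries and on each age, edgeR on each age, library size alone, DESeq2 size factors, upper-quartile factors, no filter, a stricter filter of 50 counts in 3 libraries, the replicate block and each library left out. Where a value below changed, the cause was not tested. Of all genes, 1695 were called at 2w, and 2617 and 3107 with DESeq2 on all libraries and on each age. The difference between ages was called for 188, for 601 with DESeq2, 420 without a filter and 347 with library size alone, and the change with age in Wt for 2524, and 4120 with library size alone. Without 12w Wt replicate 4 calls over all genes were 3071 at 2w, 579 for the difference between ages and 4020 with age in Wt, and without 2w Wt replicate 3 they were 754, 91 and 1349. Without 12w Tg7 replicate 2 the 3772 calls at 12w became 2417. The low counts of Isg15 and Ifi44 gave the widest errors of the 9 genes.

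Of the 9 genes, DESeq2 called 3 higher in Tg7 at 12w in either fit, and library size alone called 5. Further interferon-stimulated genes called higher at 2w were 15 with DESeq2 in either fit and 18 with library size alone, and at 12w 33 with library size alone. Heavy chains and loading genes called higher were 12 at 2w with DESeq2 on each age and 19 at 12w with library size alone. Library size alone called 1670 of all 15961 genes higher in Tg7 at 2w and 5198 at 12w. DESeq2 on all libraries called 1573 of them higher at 2w and 2261 at 12w. On each age it called 1600 of 15281 genes higher at 2w and 1814 of 15079 at 12w. With a library left out, the 9 genes gave 1 to 2 calls higher in Tg7 at 2w, 1 to 2 at 12w, 0 to 1 for the difference between ages and 2 to 5 with age in Tg7. Further interferon-stimulated genes gave 3 to 15 at 2w, and heavy chains and loading genes 2 to 9.

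With library size alone, signs changed for Oasl2 (0.17) and H2-K1 (0.28) at 12w, for Irf7 between ages of the Tg7 effect (0.20) and with age in Wt (−0.35), for B2m with age in Tg7 (−0.018) and for H2-K1 with age in Wt (−0.065). With a library left out, the difference between ages of the Tg7 effect ran from −0.64 to 0.56 for Isg15, from −0.20 to 0.065 for Irf7 and from −0.10 to 0.19 for H2-K1. The change with age ran from −0.095 to 0.12 for Irf7 in Wt, and in Tg7 from −0.16 to 0.088 for Irf7, from −0.014 to 0.69 for Ifi44 and from −0.088 to 0.28 for B2m. Tg7 minus Wt ran from −0.10 to 0.61 for Ifi44 at 2w and from −0.029 to 0.19 for Usp18 at 12w. None of these changes of sign was in a value that had passed the threshold.

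Replicate numbers are not stated to mark pairs, so the block was not used in the main fit. Same-numbered Wt and Tg7 libraries did not deviate together (r from −0.167 to −0.0112), and no 2w Wt library correlated best with the Tg7 library of its own number. With 3 libraries per group this check cannot exclude pairing. With the replicate block, which drops 12w Wt replicate 4, the calls higher in Tg7 stayed at 2 at 2w and 1 at 12w, Ifit1 at 12w (log2 −0.86) and Usp18 at 2w (−0.68) passed, and calls with age were 6 in Wt and 5 in Tg7, with B2m (log2 0.72) and H2-K1 (0.48) gained in Wt and H2-K1 (0.42) in Tg7. Over all genes the block gave 2630 calls at 2w, 502 for the difference between ages and 3817 with age in Wt. The difference between ages for H2-K1 was then −0.059.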
